A study of Rattus norvegicus with 23 samples.

Results

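C1ql1, Lhfpl3, Cacng4, Tmem100, Ednrb, Gpr37l1, Cdo1, Lnx1, Fabp7 and Dscam are 10 genes used as markers of oligodendrocyte progenitors beside the classical Pdgfra and Cspg4. They were picked by gene symbol from the authors' deposited tables and followed by identifier through the count files of 6 groups of rat cells. Of the 10 genes, 9 were found and were counted in all 23 libraries, among 15219 genes listed in every file. The expression of Lhfpl3 was not analysed here.

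Oligodendrocyte progenitors divide in response to PDGF-AA and bFGF and become myelin-forming oligodendrocytes when these are withdrawn and thyroid hormone is given. The 10 genes do unlike things in the cell. Ednrb is a receptor for endothelins, Gpr37l1 is a receptor-like protein for which prosaposin has been proposed as a ligand, and C1ql1 is a secreted relative of complement C1q that binds the receptor Adgrb3 (Bai3) at synapses. Cacng4 is an auxiliary subunit of AMPA-type glutamate receptors, Dscam is a cell adhesion molecule of the immunoglobulin family, and Tmem100 is a small membrane protein known in the mouse as a target of BMP signalling in blood vessels. Inside the cell, Fabp7 carries fatty acids and also marks radial glia, Cdo1 (cysteine dioxygenase) oxidises cysteine on the way to taurine, and Lnx1 is a ubiquitin ligase that acts on Numb.

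The study asked which genes respond to the transcription factors Zfp488 and Nkx2.2 in differentiating CG4 cells, an immortalized line from primary rat oligodendroglia. CG4 cells transduced with myc-tagged Zfp488 (pCAG-myc-Zfp488-IRES-EGFP, 4 libraries), with T7-tagged Nkx2.2 (pCAG-T7-Nkx2.2-IRES-EGFP, 4 libraries) or with the empty vector (pCAG-IRES-EGFP, control, 4 libraries) were differentiated for 3 days, and all of them carried EGFP under the broadly active CAG promoter. Wild-type CG4 cells without a vector were kept proliferating (3 libraries). Primary rat oligodendroglia, shaken off mixed glial cultures, were differentiated for 3 days or kept proliferating (4 libraries each). Proliferating cells grew in basal medium with bFGF and PDGF-AA, and differentiating cells in SATO medium with high T3/T4 and CNTF. CG4 is a single line, and the titles call the libraries biological replicates without naming cultures or animals, so p-values measure the spread between these libraries.

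The libraries held between 20063345 and 49206479 counts. Levels are given in CPM, counts scaled to the library's total over the listed genes times its TMM factor, which sets the libraries so that most genes differ little between them. They compare libraries for a gene but not genes with each other. That factor ran between 0.800 and 0.866 for primary libraries under differentiation, between 1.13 and 1.16 for proliferating primary libraries, and between 0.952 and 1.09 for CG4 libraries. Scaling by library totals alone, an alternative chosen after seeing the data, is therefore given wherever it changed a direction or a call. Zfp488 reached 131 to 201 CPM in the Zfp488 libraries, against 34.0 to 58.8 CPM in control libraries, and Nkx2-2 reached 1289 to 2008 CPM in the Nkx2.2 libraries, against 210 to 304 CPM in control libraries. The summed level of 11 oligodendrocyte markers was 10850 to 18490 CPM in control CG4 and 1760 to 2837 CPM in proliferating CG4 libraries, and 95210 to 106600 CPM in differentiating and 1450 to 1525 CPM in proliferating primary libraries. The progenitor marker Cspg4 averaged 2.69 ± 0.127 CPM in proliferating CG4 (SD, n = 3) and 96.2 ± 2.57 CPM in proliferating primary cells (SD, n = 4), so this defining marker was near 0 in the line. A list of 29 other progenitor genes, Cspg4 among them, did not share this. Its summed level was 13880 to 17840 CPM in proliferating CG4 and 7760 to 8169 CPM in proliferating primary libraries. Of the 29 genes, 17 were called higher and 7 lower in proliferating CG4. Over all genes tested in this comparison 39.2% were called higher and 32% lower. Control CG4 libraries differ from proliferating CG4 libraries in vector, read length (150 and 100 bases) and genes listed as well as in condition. For differentiating CG4 libraries 32552 genes were listed. Of their counts, 8.24% to 10.5% lay outside the 15219 genes listed for all libraries, against 0% for proliferating CG4 and primary libraries. Vector, read length, gene list and condition cannot be told apart. In these bulk samples, fewer cells of a type and less RNA per cell cannot be told apart either.

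**Figure D1:**
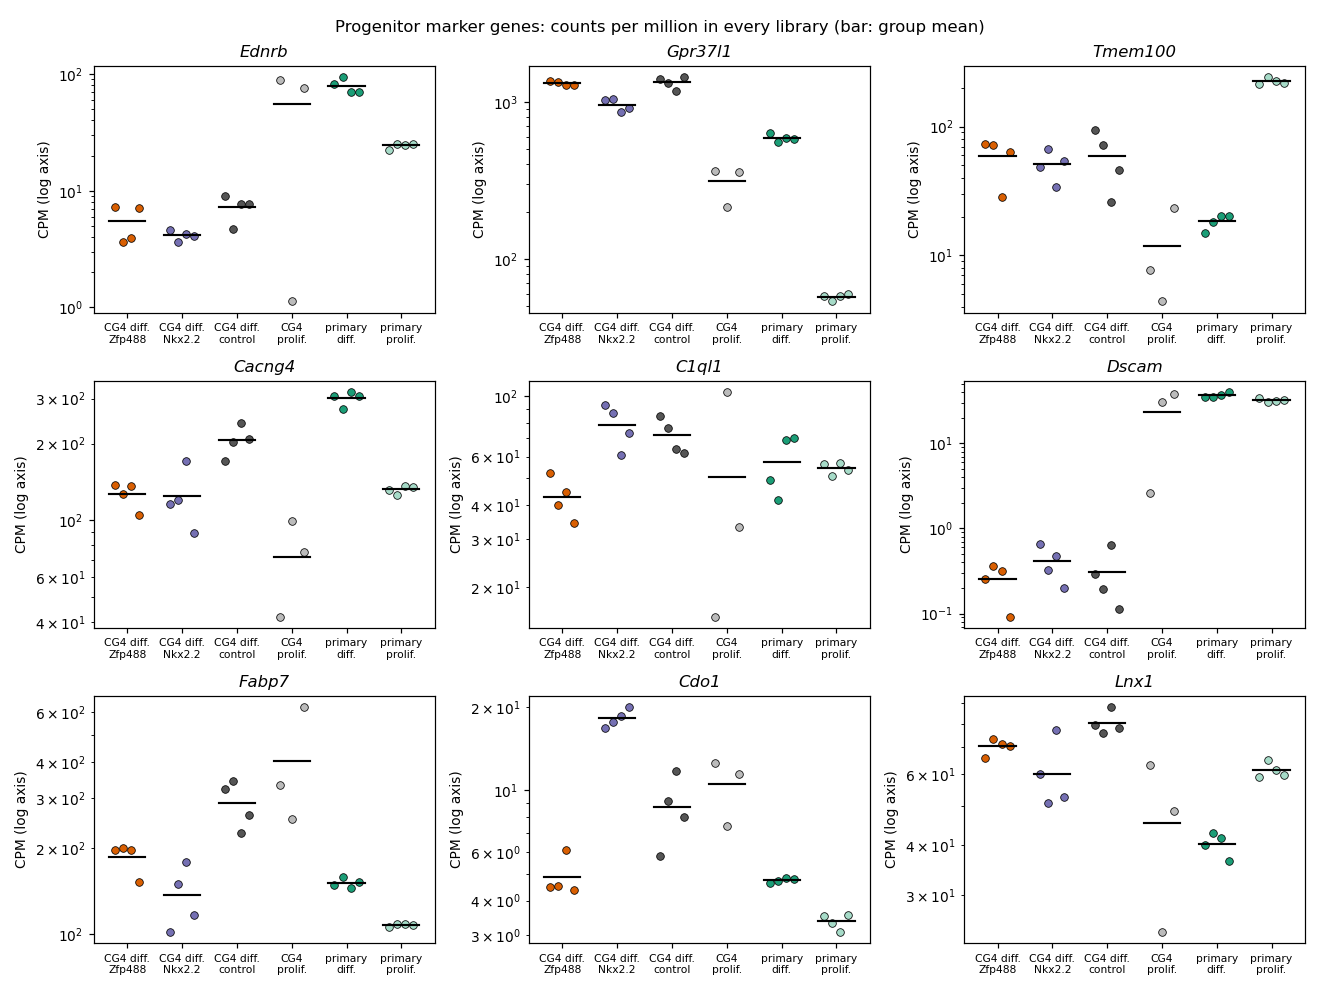
CPM (log axis) of the 9 genes in each of the 23 libraries by group, with points for libraries in replicate order and a bar for the group mean. Ednrb and Dscam were low in all 12 differentiating CG4 libraries and high in differentiating primary cells, Tmem100 was highest in proliferating primary cells, and the 3 proliferating CG4 libraries lay far apart for Ednrb, Dscam, C1ql1 and Tmem100.

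With added Zfp488, C1ql1, Cacng4 and Cdo1 fell and none of the 9 genes rose. Each called gene fell to between 0.564 and 0.618 times its control level. Among all 14811 genes tested in differentiating CG4 cells, 9.04% were called in this comparison, 5.89% higher and 3.15% lower, so 3 of 9 is to be read beside these shares. Of the genes called, 65.2% were higher, or 49.2% by library totals alone. With libraries of the same number blocked 24.1% of all genes were called, 57.9% of these higher. The median log2 fold change over the 9 genes was -0.405, beside -0.0167 over all genes tested.

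The ligand gene C1ql1 had 52.4, 40.0, 44.4 and 34.3 CPM in Zfp488 libraries, against 84.6, 76.5, 64.1 and 62.1 CPM in control libraries. All 4 Zfp488 libraries lay below all 4 control libraries, and the log2 fold change was -0.74 ± 0.16 (SE; edgeR adjusted p = 0.0151). The AMPA receptor subunit gene Cacng4 had 137, 127, 137 and 105 CPM in Zfp488 libraries, against 171, 203, 242 and 208 CPM in control libraries. The groups again did not overlap, with a log2 fold change of -0.69 ± 0.17 (SE; edgeR adjusted p = 0.0294). Cdo1, at the head of the route from cysteine to taurine, had 4.46, 4.52, 6.09 and 4.36 CPM in Zfp488 libraries, against 5.78, 9.15, 11.8 and 8.04 CPM in control libraries. Zfp488 replicate 3 lay just above control replicate 1, so these groups overlapped, and the log2 fold change was -0.83 ± 0.19 (SE; edgeR adjusted p = 0.0221).

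The fatty acid carrier Fabp7 stood at the threshold. It had 197, 200, 197 and 152 CPM in Zfp488 libraries, against 324, 345, 226 and 262 CPM in control libraries. All 4 Zfp488 libraries lay below the control range, but the adjusted p was 0.05004 in edgeR at a log2 fold change of -0.62 ± 0.18 (SE). With libraries of the same number blocked, it was 0.0166, and by library totals alone 0.0344, which makes 4 genes lower. In edgeR it was also 0.0494 with RLE size factors and 0.0488 without a filter on low counts. It was 0.035 with only the 8 libraries compared and 0.0462 with only the genes listed in all files. DESeq2 gave 0.01265. Leaving out 1 library gave edgeR adjusted p values of 0.0454 to 0.154. The authors' deposited table gives Fabp7 a log2 fold change of -0.61 with an adjusted p of 0.00252.

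The other 5 genes did not pass the test. Gpr37l1 had 1277 to 1351 CPM in Zfp488 libraries and 1173 to 1436 CPM in control libraries, with an approximate 95% interval of the log2 fold change from -0.19 to 0.17. For Lnx1 the interval ran from -0.41 to 0.04 and for Ednrb from -0.90 to 0.09. Tmem100 was too variable to bound closely, with an interval from -0.72 to 0.73, and Dscam had only 3 to 14 counts in each Zfp488 library and 5 to 26 in each control library.

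With all libraries and those of the same number blocked, C1ql1, Cacng4 and Cdo1 were also called (edgeR adjusted p = 0.000593, 0.00266 and 0.00285). Without the block, each call could be lost on leaving out 1 library. The log2 fold changes then ran from -0.85 to -0.64 for C1ql1, from -0.78 to -0.61 for Cacng4 and from -0.98 to -0.64 for Cdo1. Without Zfp488 replicate 4, which had the lowest level of C1ql1, Cacng4, Cdo1 and Fabp7 in its group, none of the 9 genes was called lower, and C1ql1 came to a log2 fold change of -0.64 with an adjusted p of 0.0525 in edgeR. Without Zfp488 replicate 2 or control replicate 2, 1 gene was called lower. Cacng4 lost its call without Zfp488 replicate 2 or 4 or control replicate 2, 3 or 4, and Cdo1 without Zfp488 replicate 2 or 4 or control replicate 2 or 3. The calls over all genes moved too, with 458 in place of 1339 without Zfp488 replicate 4, 620 without Zfp488 replicate 2, and 877, 800 and 669 without control replicates 1, 2 and 3.

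With added Nkx2.2, Cdo1 rose while Fabp7, Cacng4, Gpr37l1 and Lnx1 fell. Cdo1 stood at 2.11 times its control level and Fabp7 at 0.475 times. Over all genes 10.6% were called in this comparison, 6.1% higher and 4.48% lower, beside 1 of 9 higher and 4 of 9 lower here. Of the genes called, 57.7% were higher, or 72.2% by library totals alone. With the block 26.2% of all genes were called, 48.3% of these higher. The median log2 fold change over the 9 genes was -0.412, beside -0.00768 over all genes tested. The control libraries are the same as in the Zfp488 comparison.

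Fabp7 had 102, 150, 178 and 116 CPM in Nkx2.2 libraries, all below the control range of 226 to 345 CPM, with a log2 fold change of -1.07 ± 0.18 (SE; edgeR adjusted p = 0.00244). Gpr37l1 had 1024, 1044, 855 and 907 CPM in Nkx2.2 libraries, against 1389, 1312, 1173 and 1436 CPM in control libraries. These groups did not overlap, with a log2 fold change of -0.47 ± 0.09 (SE; edgeR adjusted p = 0.00619). Cacng4 had 116, 120, 170 and 89.4 CPM in Nkx2.2 libraries, the highest of them 170.3 CPM and just under the lowest control value of 170.6 CPM, with a log2 fold change of -0.73 ± 0.17 (SE; edgeR adjusted p = 0.0189). The ubiquitin ligase gene Lnx1 had 60.0, 50.9, 76.9 and 52.6 CPM in Nkx2.2 libraries, against 79.2, 76.0, 87.8 and 77.9 CPM in control libraries. Nkx2.2 replicate 3 lay within the control range, and the log2 fold change was -0.41 ± 0.12 (SE; edgeR adjusted p = 0.0404).

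Cdo1 had 16.8, 17.7, 18.6 and 19.9 CPM in Nkx2.2 libraries, against 5.78 to 11.8 CPM in control libraries. It was the member that moved in opposite directions under the factors, at a log2 fold change of 1.08 ± 0.19 with Nkx2.2 (SE; edgeR adjusted p = 0.00332). The endothelin receptor gene Ednrb had 4.58, 3.61, 4.29 and 4.06 CPM in Nkx2.2 libraries, all below the lowest control value of 4.74 CPM. Its adjusted p was 0.0627 in edgeR at a log2 fold change of -0.81 ± 0.25 (SE), and 0.00586 with libraries of the same number blocked. It was 0.0375 in edgeR with only the 8 libraries compared and 0.0186 in DESeq2. The authors' deposited values give Ednrb a log2 fold change of -0.81 with an adjusted p of 0.00272. C1ql1, Tmem100 and Dscam did not pass the test, with intervals from -0.17 to 0.44, from -0.93 to 0.51 and from -0.57 to 1.47.

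Lnx1 lost its call by library totals alone (log2 fold change -0.34, edgeR adjusted p = 0.0656), which leaves 3 genes lower. It also lost its call when any of 7 of the 8 libraries compared was left out, every one but Nkx2.2 replicate 3, with an adjusted p of up to 0.124 in edgeR. Cacng4 lost its call without Nkx2.2 replicate 2 (adjusted p = 0.0546) and without Nkx2.2 replicate 4 (adjusted p = 0.0524), so that 2 genes were then called lower, and the calls over all genes came to 974 and 924 in place of 1567.

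**Figure D2:**
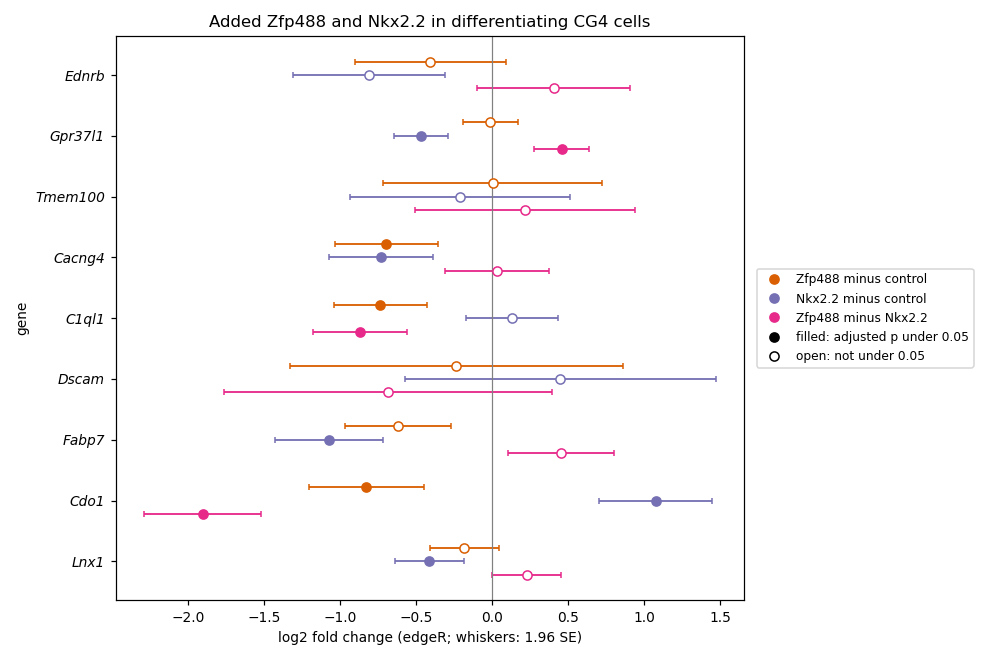
Log2 fold changes of the 9 genes for Zfp488 minus control, Nkx2.2 minus control and Zfp488 minus Nkx2.2 in differentiating CG4 cells, with approximate 95% intervals and filled points where the edgeR adjusted p was under 0.05. Cacng4 lay left of 0 under both factors, Cdo1 lay on opposite sides, and Gpr37l1 moved with Nkx2.2 while its Zfp488 point sat at -0.01.

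Set directly against each other, Zfp488 libraries had less C1ql1 and Cdo1 and more Gpr37l1 than Nkx2.2 libraries. Cdo1 differed most among the 9 genes, at 0.267 times its Nkx2.2 level and a log2 difference of -1.90 ± 0.20 (SE; edgeR adjusted p = 6.31e-05). C1ql1 had 34.3 to 52.4 CPM in Zfp488 libraries and 61.0 to 92.6 CPM in Nkx2.2 libraries, with a log2 difference of -0.87 ± 0.16 (SE; edgeR adjusted p = 0.00201). Gpr37l1 had 1277 to 1351 CPM in Zfp488 libraries and 855 to 1044 CPM in Nkx2.2 libraries, with a log2 difference of 0.46 ± 0.09 (SE; edgeR adjusted p = 0.0036). Over all genes 25.3% were called in this comparison, 13.3% higher and 12% lower, beside 1 of 9 higher and 2 of 9 lower. Of the genes called, 52.6% were higher, or 28.2% by library totals alone, where the median over all genes was -0.144 in place of -0.0122. With the block 42.4% of all genes were called, 52% of these higher.

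Cacng4 did not differ detectably between the factors, with an interval of the log2 difference from -0.31 to 0.37. Fabp7 was higher by 0.46 with Zfp488 at an adjusted p of 0.0801, and Lnx1 by 0.23 at 0.165 in edgeR. With libraries of the same number blocked these values were 0.0371 and 0.0465, which makes 3 genes higher. Leaving out Nkx2.2 replicate 3, which had the highest Fabp7 and Lnx1 of its group, also made 3 genes higher.

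Markers of other cell types and of oligodendrocytes moved with the factors as well. The summed level of 8 Schwann cell and neural crest markers, Ednrb among them, was 225 to 315 CPM in Zfp488 libraries and 290 to 1018 CPM in Nkx2.2 libraries, against 171 to 202 CPM in control libraries. Of these 8 genes, 2 rose and 0 fell with Zfp488, while 2 rose and 1 fell with Nkx2.2. The sum of 3 measured fibroblast, pericyte and endothelial markers was 23.7 to 75.8 CPM in Zfp488 libraries and 36.4 to 130.0 CPM in Nkx2.2 libraries, against 8.17 to 21.3 CPM in control libraries, and 2 of the 3 rose with Zfp488 and 1 with Nkx2.2. That of 11 oligodendrocyte markers was 18470 to 34130 CPM in Zfp488 libraries and 6738 to 18050 CPM in Nkx2.2 libraries, against 10850 to 18490 CPM in control libraries. Their part in the values of the 9 genes was not tested.

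Promoter sequences are shown for Fabp7, Gpr37l1 and Lnx1, the genes called lower with Nkx2.2 for which RefSeq gave a window. Each runs 5′ to 3′ from 250 bases before to 50 bases after the gene's start in the build GRCr8, not the rn6 build of the counts, and capitals mark E-boxes (CANNTG). Of the 10 genes, 6 had a window.
Fabp7 (chr20:37669356-37669655, plus strand): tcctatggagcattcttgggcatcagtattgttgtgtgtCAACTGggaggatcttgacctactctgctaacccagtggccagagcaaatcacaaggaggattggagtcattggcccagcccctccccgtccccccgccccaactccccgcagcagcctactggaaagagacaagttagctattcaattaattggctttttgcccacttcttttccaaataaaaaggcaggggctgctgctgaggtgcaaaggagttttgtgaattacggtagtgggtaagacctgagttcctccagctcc
Gpr37l1 (chr13:49157155-49157454, minus strand): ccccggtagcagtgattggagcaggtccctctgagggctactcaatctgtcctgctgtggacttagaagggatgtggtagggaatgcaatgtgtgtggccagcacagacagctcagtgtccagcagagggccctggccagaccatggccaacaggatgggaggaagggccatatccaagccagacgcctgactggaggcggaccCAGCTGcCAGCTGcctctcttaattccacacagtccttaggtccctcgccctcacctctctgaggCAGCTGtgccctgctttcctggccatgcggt
Lnx1 (chr14:33868321-33868620, plus strand): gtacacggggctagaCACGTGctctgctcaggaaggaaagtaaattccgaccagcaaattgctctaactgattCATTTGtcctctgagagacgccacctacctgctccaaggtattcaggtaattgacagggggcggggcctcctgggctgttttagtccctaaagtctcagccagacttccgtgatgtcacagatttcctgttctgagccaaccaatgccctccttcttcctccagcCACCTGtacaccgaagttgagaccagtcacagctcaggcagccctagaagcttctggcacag

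Fabp7 held 1 E-box in its window, while Gpr37l1 and Lnx1 held 3 each, those of Gpr37l1 all reading CAGCTG. An E-box, the letters bound by helix-loop-helix factors, was present in 5 of the 6 windows and in 72.1% of 33469 rat promoter windows of the same length. The letters ACAAT, a core of Sox sites, were found on either strand in Fabp7 only, and in 33.7% of all windows. GGGCGG was found in Fabp7, Lhfpl3 and Lnx1, and in 33.1% of all windows. CAAGTG, a core of Nkx2 sites that is itself an E-box, and TATAAA were in none of the 6 windows, and in 14.1% and 14.2% of all windows. All motifs were searched on both strands, and these matches describe letters in the windows alone.

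Genes that work with the 9, or belong to their families, were counted in the same fits. Of 36 such genes 28 were tested in differentiating CG4 cells. With Zfp488, 4 rose and 2 fell, and with Nkx2.2, 4 rose and 1 fell, with medians of 0.0609 and -0.0812 on the log2 scale. Leaving out 1 library gave 3 to 4 higher and 0 to 1 lower with Zfp488, and 2 to 5 higher and 1 to 8 lower with Nkx2.2, the 8 without Nkx2.2 replicate 3 and the 2 without Nkx2.2 replicate 4 or control replicate 1 or 2. Cacng2 (stargazin), the best known relative of Cacng4, rose with both factors while Cacng4 fell, at a log2 fold change of 3.28 ± 0.62 with Zfp488 (SE; adjusted p = 0.00902) and 3.46 ± 0.61 with Nkx2.2 (SE; adjusted p = 0.00327). The gene Gpr37, a relative of Gpr37l1 that limits oligodendrocyte differentiation in the mouse, averaged 62.0 ± 15.7 CPM in Nkx2.2 libraries and 9.93 ± 3.91 CPM in control libraries (SD, n = 4 each), a log2 fold change of 2.64 ± 0.33 (SE; adjusted p = 0.000395). Ntn1 (netrin-1), for which Dscam has been described as a receptor, fell with Nkx2.2 by 1.07 on the log2 scale (adjusted p = 0.000448). With Zfp488, Fabp5, a further fatty acid carrier, and Lhfpl2, a relative of Lhfpl3, rose by 0.59 and 0.57 on the log2 scale (edgeR adjusted p = 0.0126 and 0.0137).

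Of 29 other progenitor genes, all tested, 0 rose and 4 fell with Zfp488, while 6 rose and 2 fell with Nkx2.2. The median log2 fold changes were -0.293 with Zfp488 and 0.0197 with Nkx2.2. With Zfp488 the transcription factor gene Olig1 averaged 234 ± 43.2 CPM, against 436 ± 58.0 CPM in control libraries (SD, n = 4 each; log2 fold change -0.89 ± 0.17 SE, edgeR adjusted p = 0.0105). Rlbp1, which encodes a retinaldehyde-binding protein, and Xylt1, which starts the sugar chains of proteoglycans, fell by 0.90 and 1.05 (edgeR adjusted p = 0.00958 and 0.0172). With Nkx2.2, Sox5 and Id4, regulators that hold back oligodendrocyte maturation in rodents, rose by 2.59 and 1.99 (edgeR adjusted p = 7.41e-05 and 0.000135), and the AMPA receptor subunit gene Gria3 fell by 0.89 (edgeR adjusted p = 0.00257). With Zfp488 against Nkx2.2, 1 of the 29 was higher and 11 were lower. With libraries of the same number blocked, 3 rose and 11 fell with Zfp488, and 7 fell with Nkx2.2. Leaving out 1 library gave 2 to 5 lower with Zfp488, the 2 without Zfp488 replicate 2 or 4, and 4 to 7 higher and 1 to 3 lower with Nkx2.2. Scaled by library totals alone, 1 fell with Nkx2.2.

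During differentiation of primary cells 6 of the 9 genes rose and 2 fell on the TMM scale. Gpr37l1, Ednrb and Cacng4 rose most, and Tmem100 and Lnx1 fell. Cdo1, Fabp7 and Dscam rose by less and on the TMM scale only, since by library totals alone Cdo1 and Fabp7 were not called and Dscam fell. Over all 12310 genes tested, 84.8% were called, 41.5% higher and 43.3% lower, so a call is the common outcome here and the sizes carry the description. The median log2 fold change over the 9 genes was 0.525, beside -0.0224 over all genes tested.

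By library totals alone the median over all genes was -0.524, and 27.8% of the genes called were higher, in place of 49%. On that scale 3 of the 9 genes rose and 3 fell. Gpr37l1, Ednrb and Cacng4 still rose, and Tmem100 and Lnx1 still fell. The fold changes given next are on the TMM scale, that is, relative to most other genes.

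Gpr37l1 had 633, 551, 588 and 582 CPM in differentiating primary libraries, against 58.0, 53.6, 58.3 and 59.4 CPM in proliferating ones, at 10.5 times its proliferating level (log2 fold change 3.40 ± 0.06 SE; edgeR adjusted p = 1.15e-12). Ednrb had 81.8, 94.2, 69.8 and 70.6 CPM in differentiating primary libraries, against 22.4, 25.4, 24.8 and 25.2 CPM in proliferating ones (log2 fold change 1.73 ± 0.09 SE; edgeR adjusted p = 9.17e-09). Tmem100 moved the other way, with 14.9, 18.3, 20.1 and 20.4 CPM in differentiating libraries, against 215, 242, 225 and 219 CPM in proliferating ones. That is 0.0836 times its proliferating level, and its groups were far apart (log2 fold change -3.58 ± 0.09 SE; edgeR adjusted p = 3.21e-11).

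Cacng4 averaged 301 ± 18.8 CPM in differentiating primary libraries and 132 ± 4.41 CPM in proliferating ones (SD, n = 4 each). Lnx1 fell to 40.2 ± 2.70 CPM in differentiating primary libraries, against 61.2 ± 2.66 CPM in proliferating ones (SD, n = 4 each), a log2 fold change of -0.57 ± 0.05 (SE; edgeR adjusted p = 1.5e-06). Fabp7 and Cdo1 rose by 0.53 ± 0.04 and 0.52 ± 0.09 on the log2 scale (SE), and Dscam by 0.24 ± 0.06 (SE; edgeR adjusted p = 0.00296). The groups of each of these genes did not overlap on this scale. By library totals alone Dscam was lower, at 28.1 to 34.6 CPM in differentiating and 35.0 to 39.2 CPM in proliferating primary libraries (log2 fold change -0.26, edgeR adjusted p = 0.00516). Fabp7 and Cdo1 then had log2 fold changes of 0.025 and 0.022 (edgeR adjusted p = 0.574 and 0.95).

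C1ql1 did not pass the test, with an interval from -0.18 to 0.41, nor by library totals alone, where its log2 fold change was -0.38 (edgeR adjusted p = 0.053). It had 49.4 and 41.5 CPM in differentiating primary libraries 1 and 2 and 69.1 and 70.3 CPM in libraries 3 and 4, against 50.9 to 57.1 CPM in proliferating ones. Libraries 1 and 2, and 3 and 4, were also closer to each other over all genes than across these pairs, with a chi-square per degree of freedom of 8.45 and 1.77 within the pairs and 29.3 to 37.1 between them. Between proliferating primary libraries this measure was 2.15 to 4.48, and between control CG4 libraries 20.7 to 148. The SEs and p-values in primary cells measure the spread between these primary libraries alone. Without differentiating library 2 the log2 fold change of C1ql1 was 0.25 (edgeR adjusted p = 0.047).

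Markers of other cell types moved with condition in the primary cultures. The summed level of 3 measured microglia markers was 18.7 to 24.8 CPM in differentiating and 446 to 466 CPM in proliferating primary libraries, with 3 of 3 lower. That of 3 measured fibroblast, pericyte and endothelial markers was 9.77 to 20.1 CPM in differentiating and 126 to 153 CPM in proliferating primary libraries, with 3 of 3 lower. That of 8 neuron markers was 409 to 523 CPM in differentiating and 793 to 827 CPM in proliferating primary libraries, with 1 higher and 6 lower of 7 tested. That of 10 astrocyte markers, a cell type in which Gpr37l1, Ednrb and Fabp7 are also known to be expressed, was 1549 to 2763 CPM in differentiating and 338 to 361 CPM in proliferating primary libraries, with 8 of 10 higher and 1 lower. In CG4 cells the astrocyte sum was 2635 to 4097 CPM in control and 321 to 628 CPM in proliferating libraries, with 7 of 10 higher and 0 lower. Whether other cell types had a part in the values of the 9 genes was not tested.

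Among the related genes tested in primary cells, 11 of 23 rose and 10 fell, or 4 rose and 14 fell by library totals alone. Gpr37 averaged 344 ± 5.02 CPM in differentiating and 2.30 ± 0.396 CPM in proliferating primary libraries (SD, n = 4 each; log2 fold change 7.27 ± 0.08 SE). Csad, the enzyme after Cdo1 in taurine synthesis, rose by 2.65 and the second endothelin receptor gene Ednra by 5.22 on the log2 scale. Of the 29 other progenitor genes 16 rose and 7 fell, or 10 rose and 15 fell by library totals alone, and the 3 with the smallest adjusted p were the matrix genes Bcan (log2 fold change 2.97) and Tnr (4.05) and the adhesion gene Cntn1 (1.67).

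In CG4 cells, 4 of the 9 genes rose on differentiation and 2 fell. Gpr37l1, Tmem100, Cacng4 and Lnx1 rose, and Ednrb and Dscam fell. Over all 12486 genes tested 65.8% were called, 32.5% higher and 33.2% lower. The median log2 fold change was 0.521 over the 9 genes and 0.0114 over all genes tested.

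Gpr37l1 had 1389, 1312, 1173 and 1436 CPM in control CG4 libraries, against 362, 215 and 359 CPM in proliferating CG4 libraries (log2 fold change 2.11 ± 0.21 SE; edgeR adjusted p = 5.98e-05). Cacng4 averaged 206 ± 29.0 CPM in control CG4 (SD, n = 4) and 72.0 ± 28.6 CPM in proliferating CG4 libraries (SD, n = 3), a log2 fold change of 1.54 ± 0.28 (SE; edgeR adjusted p = 0.00151). Tmem100 had 93.2, 71.6, 25.9 and 46.0 CPM in control libraries, against 7.72, 4.40 and 23.2 CPM in proliferating CG4 libraries. The groups did not overlap, although the lowest control library came close to the highest proliferating one (log2 fold change 2.35 ± 0.64 SE; edgeR adjusted p = 0.0114). Lnx1 rose by 0.84 ± 0.28 on the log2 scale (SE; edgeR adjusted p = 0.0265). It lost its call without control replicate 3 or 4 or proliferating CG4 replicate 3, at adjusted p values of 0.0505 to 0.0588 in edgeR.

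Dscam was almost lost from differentiating CG4 cells. It had 0.294, 0.192, 0.638 and 0.112 CPM in control libraries, from 5 to 26 counts each, against 2.61, 30.6 and 38.0 CPM in proliferating CG4 libraries, at a log2 fold change of -6.23 ± 0.95 (SE; edgeR adjusted p = 0.000613). It was likewise low in the Zfp488 libraries, at 0.0921 to 0.363 CPM, and in the Nkx2.2 libraries, at 0.198 to 0.662 CPM.

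Ednrb had 8.96, 4.74, 7.63 and 7.74 CPM in control libraries, against 88.5, 1.12 and 75.7 CPM in proliferating CG4 libraries. Replicate 2 of the proliferating cells lay below every control library, while the other two lay far above all of them. The fall of 2.90 ± 0.99 on the log2 scale (SE) had an adjusted p of 0.0302 in edgeR, and it kept its call only when that replicate was left out, at a log2 fold change of -3.47 and an adjusted p of 1.62e-05. Leaving out any other library gave adjusted p values of 0.0599 to 0.0833, with 1 gene called lower.

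**Figure D3:**
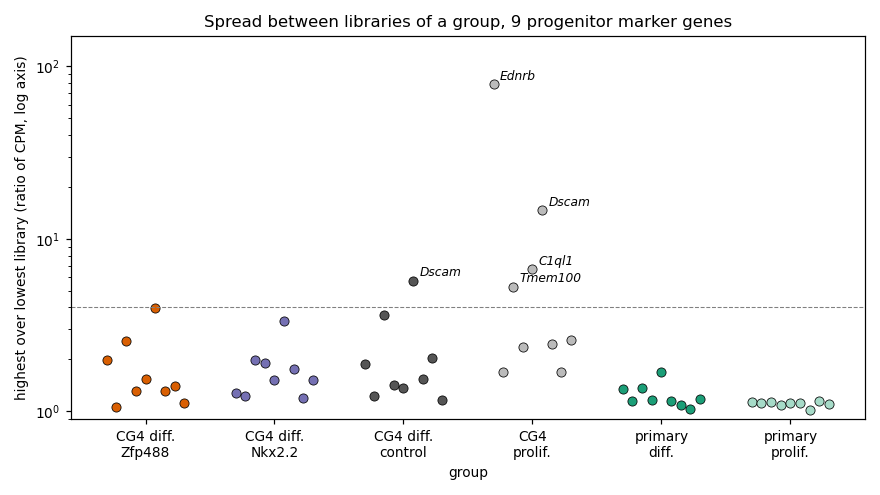
Ratio of the highest to the lowest library of each group in CPM (log axis) for the 9 genes, with the dashed line at 4 and names above it. The ratio reached 78.8 for Ednrb, 14.6 for Dscam, 6.64 for C1ql1 and 5.27 for Tmem100 among the 3 proliferating CG4 libraries and 5.71 for Dscam in control CG4, and was highest at 1.69 in primary cells.

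The 3 proliferating CG4 libraries stood apart from one another over many genes. Among genes averaging at least 5 CPM, 3.81% differed more than 4-fold between the highest and the lowest proliferating CG4 library. The share was 1.27% in Nkx2.2, 0.853% in Zfp488 and 0.846% in control CG4 libraries. It was 0.0315% in differentiating primary and 0.0102% in proliferating primary libraries. C1ql1 had 15.6, 103 and 33.1 CPM in proliferating CG4 replicates 1, 2 and 3, so replicate 2 had the most C1ql1 and the least Ednrb. Without replicate 2, C1ql1 was higher in control than in proliferating CG4 cells by 1.58 on the log2 scale (adjusted p = 0.00255) and Fabp7 lower (log2 fold change -0.70, adjusted p = 0.0453), while with all libraries their adjusted p values in edgeR were 0.415 and 0.201. Cdo1 did not pass the test, with an interval from -0.82 to 0.31.

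Among the related genes tested in CG4 cells, 11 of 24 rose and 7 fell. Numbl, a relative of the Lnx1 target Numb, rose by 2.32, Psap, which encodes prosaposin, by 1.47, and the Cacng4 relative Cacng7 by 1.78 on the log2 scale (edgeR adjusted p = 1.98e-05, 2.42e-05 and 4.45e-05). Of the 29 other progenitor genes 3 rose and 15 fell, with a median of -0.9. Xylt1, the secreted protease inhibitor gene Serpine2 and Cntn1 had the smallest adjusted p, with log2 fold changes of -2.69, -1.72 and -1.73.

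The differentiation responses of the 2 cell types were compared by an interaction term, the response in CG4 minus that in primary cells. It passed the test for 7 of the 9 genes, 2 of them more positive and 5 more negative in CG4. Over all 13207 genes tested 69.3% were called, 33.8% more positive and 35.4% more negative. By library totals alone the median over all genes was 0.428, in place of -0.0321, 66.4% of the genes called were more positive, in place of 48.8%, and 3 of the 9 genes were more positive and 3 more negative. Tmem100, Lnx1 and Ednrb were each called in both cell types and moved in opposite directions. So did Dscam on the TMM scale, while by library totals alone it fell in both. In CG4 cells the call of Ednrb was lost on leaving out any of 6 libraries out of 7, and that of Lnx1 any of 3.

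Tmem100 rose in CG4 and fell in primary cells, with a difference of 5.96 ± 0.66 on the log2 scale (SE; edgeR adjusted p = 1.56e-06). Lnx1 did the same on a smaller scale, with a difference of 1.45 ± 0.28 (SE; edgeR adjusted p = 0.00036). Ednrb fell in CG4 and rose in primary cells, as did Dscam on the TMM scale but not by library totals alone. Their differences were -4.59 ± 0.99 and -6.42 ± 0.87 (SE; edgeR adjusted p = 0.0008 and 1.1e-05). For Ednrb, proliferating CG4 replicate 2 lay below every control library, at 1.12 CPM.

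Gpr37l1 rose in both, by less in CG4, with a difference of -1.24 ± 0.19 (SE; edgeR adjusted p = 4.76e-05). Fabp7 and Cdo1 had differences of -0.94 ± 0.30 and -0.74 ± 0.30 (SE; edgeR adjusted p = 0.0116 and 0.038), and the call of Cdo1 was lost on leaving out any of 10 libraries out of 15. By library totals alone the differences of Fabp7 and Cdo1 were -0.49 and -0.29 and not called (edgeR adjusted p = 0.176 and 0.413). The difference for Cacng4 was then called at 0.81 (edgeR adjusted p = 0.0164). On the TMM scale the difference for Cacng4 had an interval from -0.17 to 0.89 and that for C1ql1 from -0.67 to 1.58. Without proliferating CG4 replicate 2 both passed, at 0.65 and 1.502 (edgeR adjusted p = 0.0193 and 0.00111), which makes 4 genes more positive in CG4.

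**Figure D4:**
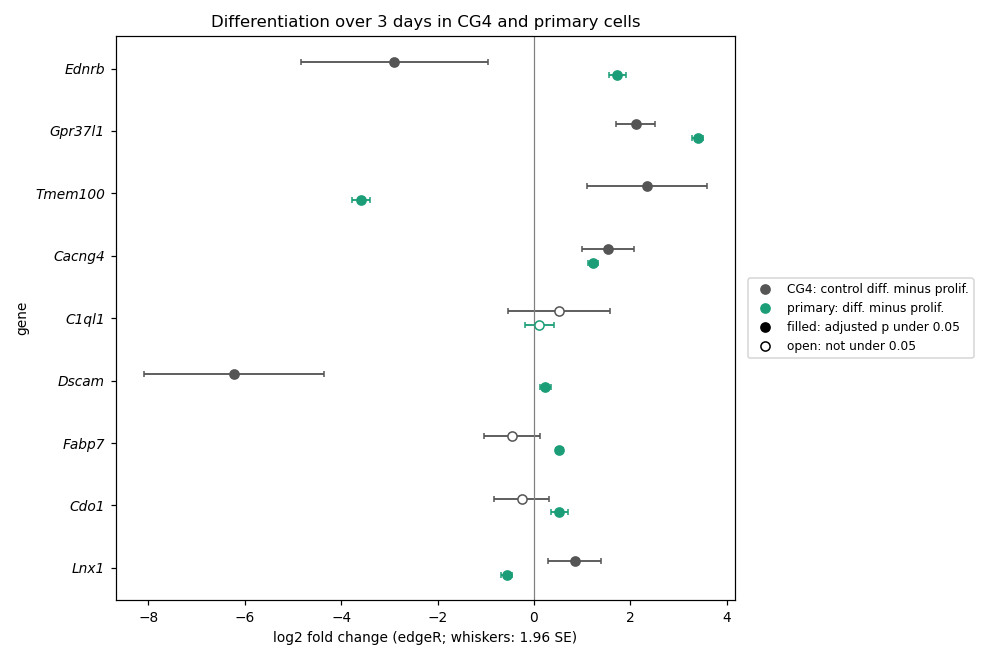
Log2 fold change on 3 days of differentiation for the 9 genes in CG4 cells (control minus proliferating) and in primary cells (differentiating minus proliferating), with approximate 95% intervals and filled points where the edgeR adjusted p was under 0.05. Tmem100, Lnx1, Ednrb and Dscam lie on opposite sides of 0 in the 2 cell types (Dscam on the TMM scale only, since by library totals alone it fell in both), while Gpr37l1 and Cacng4 lie right of 0 in both. The CG4 call of Ednrb was lost on leaving out any of 6 libraries out of 7, and that of Lnx1 any of 3.

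The related genes gave 9 of 24 more positive and 11 more negative responses in CG4, or 12 and 6 by library totals alone, led by Numbl (2.91), Psap (1.49) and the AMPA receptor subunit gene Gria4 (-2.10). Of the 29 other progenitor genes 1 was more positive and 22 more negative (3 and 13 by library totals alone), with a median of -1.23, led by Cntn1 (-3.35), Olig1 (-1.84) and Xylt1 (-1.68).

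Levels in the line and in primary cells were also set against each other at the same state. Origin differs in both states, together with vector and gene list in the differentiating state and with read length in the proliferating state. In the differentiating state 73% of all genes tested were called, 36.8% higher and 36.2% lower in control CG4. Of the genes called, 50.4% were higher, or 64.3% by library totals alone, where the median over all genes was 0.292 in place of 0.00323. Of the 9 genes 5 were higher in control CG4 than in differentiating primary cells (Tmem100 1.68, Gpr37l1 1.17, Lnx1 0.99, Fabp7 0.93 and Cdo1 0.87 on the log2 scale) and 3 were lower (Dscam -6.89, Ednrb -3.44 and Cacng4 -0.55). Cacng4 lost its call by library totals alone (log2 difference -0.26, edgeR adjusted p = 0.213). In the proliferating state 71.2% of all genes were called, 39.2% higher and 32% lower in CG4, and the median over all genes was 0.0964, or -0.0732 by library totals alone. There, 3 of the 9 were higher in CG4 (Gpr37l1 2.42, Fabp7 1.87 and Cdo1 1.61) and 2 were lower (Tmem100 -4.28 and Cacng4 -0.91).

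Without proliferating CG4 replicate 2, Ednrb was higher in proliferating CG4 by 1.74 (adjusted p = 6.51e-07) and C1ql1 lower (log2 difference -1.17, adjusted p = 0.00127). Without replicate 1, Lnx1 was lower (log2 difference -0.75, edgeR adjusted p = 0.00245). With all 3 libraries the differences were 1.15, -0.14 and -0.46 on the log2 scale, at adjusted p values of 0.155, 0.783 and 0.0606 in edgeR. Lnx1 was called lower with all libraries under RLE size factors (-0.56, edgeR adjusted p = 0.0235), in DESeq2 (-0.56, adjusted p = 0.0139) and by library totals alone (-0.63, edgeR adjusted p = 0.0149).

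Over all 6 groups the order of levels, on the TMM scale, differed from gene to gene. Gpr37l1 was highest in control CG4 at 1327 ± 115 CPM, which overlapped the Zfp488 group, and from there Nkx2.2, differentiating primary, proliferating CG4 and proliferating primary cells followed without overlap between neighbours. Cdo1 was highest in Nkx2.2 libraries at 18.3 ± 1.34 CPM (SD, n = 4), above all libraries of the other groups, and lowest in proliferating primary cells at 3.37 ± 0.21 CPM (SD, n = 4). Fabp7 had its highest mean in proliferating CG4 cells at 403 ± 194 CPM (SD, n = 3), which overlapped control CG4. The order for C1ql1 showed overlap between all neighbouring groups, from 78.4 ± 14.2 CPM in Nkx2.2 to 42.8 ± 7.62 CPM in Zfp488 libraries (SD, n = 4 each).

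As a description over the 23 libraries, which share groups and cell types, the genes whose log2 CPM ran most alike were listed for each of the 9. Gpr37l1 ran most like Stard13 and Aldoc (Pearson r = 0.989 and 0.986), Dscam like Dab1 and Cntn4 (0.972 and 0.97), Tmem100 like Pls3 and Gadd45g (0.961 and 0.942) and Lnx1 like St3gal6 and B4galnt4 (0.954 and 0.903). Ednrb ran most like Shprh and Mbip (0.932 and 0.907), Cacng4 like Fam3c and Caly (0.917 and 0.9), Cdo1 like Zfp385b and Ncmap (0.908 and 0.899), Fabp7 like Bend6 and Igbp1 (0.897 and 0.892), and C1ql1 like Gba2 and Pcnx3 (0.832 each). Between the 9 genes themselves r ran from -0.757 for Gpr37l1 with Dscam to 0.675 for Ednrb with Dscam.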

How the data were processed

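RNA was sequenced in 23 libraries of 6 groups. The deposited files hold raw counts per gene, which the authors made with Trimmomatic 0.36, STAR 2.5.2b and featureCounts of Subread 1.5.2 on rn6, per the submitters' processing notes. The annotation, strandedness and handling of multi-mapping reads were not given in the sources used here. Genes with near-identical copies or antisense partners therefore have uncertain values. The authors also deposited tables with log2 fold changes, p-values and a normalized signal (each library's count over 1 size factor, judged by the values). They gave gene names and the values credited to them.

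The main test was edgeR 4.0.16 under R 4.3.3 on these counts (quasi-likelihood, TMM, filterByExpr, two-sided, Benjamini-Hochberg over all genes tested, threshold 0.05). The SE is the size of the log2 fold change over the square root of F. Intervals reach 1.96 SE to either side, which is only approximately 95% and somewhat narrow for so few libraries. Differentiating CG4 (12 libraries), primary (8), control and proliferating CG4 (7) and both cell types (15) had a fit each. CPM is a gene's count over the library's total of the genes in all files times its TMM factor. The tests were checked on simulated data. DESeq2 1.42.0, other scaling, filters, blocks, gene lists and leaving out libraries were alternatives, and scaling by library totals alone was added after seeing the data. Library numbers paired the differentiating CG4 groups in part (r of deviations 0.16 to 0.71 for same-numbered libraries, none under 0.1), with no label stating what the number stands for. Nkx2.2 replicate 2 did not deviate most like control replicate 2. The main tests left the numbers out, and only the block used them. Library numbers did not pair the other groups.

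The 10 genes and all lists were chosen with earlier results of these data known. All 10 are named, with the 3 genes per list and comparison with the smallest adjusted p among those called, and the 2 most alike genes. Motifs were searched in RefSeq promoter windows.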

Additional observations from a re-analysis of the deposited data

Results flagged for a closer look

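The response to differentiation differed between CG4 and primary cells by an interaction term for 7 of the 9 genes tested, on the log2 scale and as CG4 minus primary. The values were 5.96 for Tmem100, 1.45 for Lnx1, -0.74 for Cdo1, -0.94 for Fabp7, -1.24 for Gpr37l1, -4.59 for Ednrb and -6.42 for Dscam. Those of Cdo1 and Fabp7 did not pass the test by library totals alone. Over all 13207 genes tested 69.3% were called in this interaction, so 7 of 9 is to be read beside that share.

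In 45 sets of 4 libraries, 1 library lay far from the other 3 in 2 cases, where chance alone gives about 1 in 20. Zfp488 replicate 3 had the highest Cdo1 of its group at 6.09 CPM, and Zfp488 replicate 4 had the lowest Fabp7 of its group at 152 CPM.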

How the results depend on the processing

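Of 450 values of the 9 genes under other settings, 414 kept their direction and side of the threshold, as did 553 of 621 when 1 library was left out. The genes called with Zfp488 numbered 2144 in DESeq2. With a replicate block they numbered 3576 with Zfp488, 3876 with Nkx2.2 and 6276 between the factors. Of the 9 genes, those higher with Zfp488 than Nkx2.2 came to 2 in DESeq2 and 3 with the block. With the block, 1 fell on CG4 differentiation, where Ednrb came to -1.963 (adjusted p = 0.244). In the interaction 3 were more negative with it, without Cdo1 (-0.73) and Fabp7 (-0.81). CG4 and primary libraries of these comparisons were not paired by number, and the block could not be fitted between CG4 and primary cells. It changed no call of the 9 genes but these and those given beside their results. By library totals alone, chosen after seeing the data, 3 of the 9 genes rose in primary differentiation, where C1ql1 came to -0.38 and Dscam to -0.26, and 3 were more negative in the interaction. Tmem100 with Zfp488 then came to -0.051 and Cacng4 between the factors to -0.093. The cause of these shifts was not tested.

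Leaving out 1 library gave 458 to 1509 genes called and 0 to 3 of the 9 lower with Zfp488, and 924 to 2302 and 2 to 4 with Nkx2.2. It gave 1 to 3 higher with Zfp488 than with Nkx2.2, 1 to 3 lower on CG4 differentiation and 2 to 4 more positive in the interaction. Values near 0 changed sign. For Tmem100 with Zfp488, 0.01 became -0.0052 without a filter on low counts, -0.0075 with only 8 libraries and -0.24 to 0.31 with 1 left out. The ranges were -0.065 to 0.036 for Gpr37l1 and -0.52 to 0.38 for Dscam with Zfp488, -0.46 to 0.093 for Tmem100 with Nkx2.2 and -0.094 to 0.23 for Cacng4 between the factors. Between proliferating CG4 and primary cells they were -1.17 to 0.32 for C1ql1 and -0.96 to 0.094 for Dscam. With the 8 libraries alone Lnx1 lost its call with Nkx2.2 (adjusted p = 0.0835). The interaction of Cdo1 lost its call with RLE size factors (adjusted p = 0.0504), and Cacng4 lost its call between differentiating CG4 and primary cells when close pairs of primary libraries were summed (adjusted p = 0.053). Depth limits Dscam in differentiating CG4 cells.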

Other observations

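Tmem100 was lowest in the library numbered 3 of all 3 differentiating CG4 groups, at 28.3 CPM in the Zfp488, 33.9 CPM in the Nkx2.2 and 25.9 CPM in the control group, where the other libraries had 46.0 to 93.2 CPM. The proliferating CG4 libraries with high Ednrb, replicates 1 and 3 at 88.5 and 75.7 CPM, reached the level of differentiating primary cells, at 69.8 to 94.2 CPM.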
